A study of Mus musculus with 10 samples.

Results

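The Cyp4a genes encode fatty acid hydroxylases, and their transcripts were followed mouse by mouse in whole kidneys of the Rragc S74N knock-in. Members were taken by gene name. Of the 6 genes taken here for the family (Cyp4a10, Cyp4a12a, Cyp4a12b, Cyp4a14, Cyp4a31 and Cyp4a32), 5 had a value among the 13837 genes measured. Expression of Cyp4a32 was not analysed here. A wider list of the family held 8 genes, of which 3 were not analysed for expression. The family was chosen with its difference between the genotypes already known, so the values of the 5 genes between genotypes are a description and carry no test. Kidneys came from 3-month-old mice, 5 of them Rragc +/+ (called +/+ here) and 5 heterozygous for the S74N allele of Rragc (KI/+), with 1 library per mouse. The allele encodes a RagC protein that activates mTORC1, the growth kinase that answers to nutrients, and it was made with CRISPR in the germ line, so every cell of a KI/+ mouse carries it next to a normal copy. Both groups were C57BL/6 mice on normal chow, and their sex is not in the labels. Homozygous mice are not viable, so only the heterozygous dose could be studied.

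Cyp4a enzymes are cytochromes P450 of the endoplasmic reticulum that add a hydroxyl group to the far (omega) end of a fatty acid. Alcohol and aldehyde dehydrogenases then turn the product into a dicarboxylic acid, which peroxisomes shorten. Some members of the family also hydroxylate arachidonic acid to an eicosanoid that acts on renal vessels and on salt transport in the tubule. In the mouse kidney, Cyp4a enzymes are found mainly in the proximal tubule. Cyp4a10 and Cyp4a14 are classical targets of PPAR alpha, the nuclear receptor that fatty acids activate, whereas Cyp4a12a is known for its dependence on androgens.

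Several of these genes are near-identical copies, and libraries of the QuantSeq 3′ kind read only the end of a transcript, so the ends of the transcripts decide how well the copies can be told apart. The last 90 coding bases, stop codon included, are printed because all 6 genes hold them at the same place. In the 5 measured genes they lie before a 3′ UTR of 521 to 943 bases, so they show how alike the copies are and not where most reads fall. Letters in capitals mark the bases at which a gene differs from Cyp4a10.
Cyp4a10: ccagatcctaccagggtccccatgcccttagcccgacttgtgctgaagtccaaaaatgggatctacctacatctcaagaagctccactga
Cyp4a31: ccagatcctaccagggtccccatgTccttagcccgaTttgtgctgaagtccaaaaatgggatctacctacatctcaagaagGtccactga
Cyp4a32: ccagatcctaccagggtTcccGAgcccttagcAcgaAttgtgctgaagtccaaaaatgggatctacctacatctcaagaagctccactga
Cyp4a14: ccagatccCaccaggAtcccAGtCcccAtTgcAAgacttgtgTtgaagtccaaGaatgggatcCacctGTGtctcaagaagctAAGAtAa
Cyp4a12a: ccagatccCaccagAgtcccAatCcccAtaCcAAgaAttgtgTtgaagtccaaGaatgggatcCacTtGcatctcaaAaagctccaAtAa
Cyp4a12b: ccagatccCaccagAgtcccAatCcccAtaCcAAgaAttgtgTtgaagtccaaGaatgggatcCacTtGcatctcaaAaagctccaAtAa
Cyp4a31 differed from Cyp4a10 at 3 of these bases and Cyp4a32 at 5. Cyp4a14 differed from Cyp4a10 at 20. Cyp4a12a and Cyp4a12b each differed from Cyp4a10 at 17 and from each other at 0, so this stretch does not tell them apart. In GRCm38, with the GENCODE vM21 annotation, the stretches lie on chromosome 4 in exon 12 of each gene, at chr4:115532610-115532699 (+ strand) for Cyp4a10, chr4:115578015-115578104 (+) for Cyp4a31, chr4:115621513-115621602 (+) for Cyp4a32, chr4:115487143-115487232 (- strand) for Cyp4a14, chr4:115331913-115332002 (+) for Cyp4a12a and chr4:115438136-115438225 (+) for Cyp4a12b. The expression values were made on GRCm39, and no position was converted.

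All 6 genes sit close together on chromosome 4, and whether other genes lie between them was not checked. From the lower to the higher position, Cyp4a12a spans 115299046 to 115332815, Cyp4a12b 115411624 to 115439034, Cyp4a14 115486200 to 115496142, Cyp4a10 115518264 to 115533649, Cyp4a31 115563649 to 115579015 and Cyp4a32 115600969 to 115621602, and Cyp4a14 alone is on the - strand. Over the whole coding sequence, Cyp4a12a and Cyp4a12b were 98.5% identical, Cyp4a10 and Cyp4a31 96.6%, Cyp4a10 and Cyp4a32 97.2%, and Cyp4a31 and Cyp4a32 96.0%. Cyp4a14 was the most distant, at 75.6% to 76.2% identity with the other 5 genes.

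The last 500 bases of each transcript were cut into all windows of 50 bases, and a window was called shared if another member matched it with at most 3 mismatches, the number that the authors' aligner allowed. Of the windows of Cyp4a14, 0% were shared with any other member. Cyp4a10 and Cyp4a31 shared 49.9% of their windows, and 6.0% were identical. For Cyp4a12a, 89.4% were shared with Cyp4a12b, and for Cyp4a12b, 90% with Cyp4a12a, while 37.0% were identical. With windows of 75 bases, the shared parts were 20.7% for Cyp4a10 and Cyp4a31, 80.0% for Cyp4a12a and Cyp4a12b, and again 0% for Cyp4a14. The read length is not given in the sources used here. Cyp4a14 could thus be told apart from the other members compared in its last 500 bases, and no other gene was compared. By this measure, the values of Cyp4a10 and Cyp4a31 are partly uncertain, and those of Cyp4a12a and Cyp4a12b more so. How many shared windows with mismatches could still be placed on the right gene was not tested. With windows of 75 bases, 0.5% were identical for Cyp4a10 and Cyp4a31, and 32.6% for Cyp4a12a and Cyp4a12b. Cyp4a32 is annotated without a 3′ UTR, so its windows are coding sequence, and 88.9% were shared with Cyp4a10 and 77.6% with Cyp4a31.

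**Figure D1:**
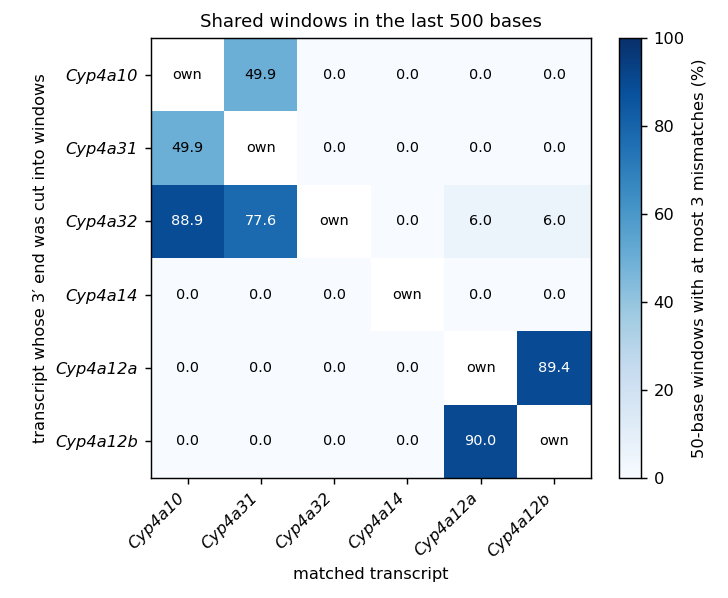
Windows of 50 bases in the last 500 bases of each Cyp4a transcript (rows) that another member's transcripts (columns) match with at most 3 mismatches, in percent. Cyp4a12a and Cyp4a12b shared 89.4% and 90%, Cyp4a10 and Cyp4a31 shared 49.9%, and Cyp4a14 shared 0% with any member.

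The libraries held 6501552 to 7856363 recovered reads in +/+ and 6872310 to 7996087 in KI/+ mice. All 23 markers of the proximal tubule had values, and their summed normalized counts (reads divided by the size factor of the library) were 332915 to 422676 in +/+ and 396355 to 494612 in KI/+ kidneys. Most of that sum was Kap, an androgen-dependent gene, in every mouse. Fat and liver markers were uneven among the KI/+ mice. The sum of the fat markers Cfd and Fabp4, the only 2 of 6 listed that had values, was 183 to 259 in +/+ mice, and 1411, 203, 94.6, 169 and 4375 in KI/+ replicates 1 to 5, so that replicates 1 and 5 stood above all other mice. The sum of the liver markers Alb, Apoa1 and Ttr was 769 to 1028 in +/+ and 1075 to 4787 in KI/+ mice. It was mostly Ttr, which reached 4588 in KI/+ replicate 5, whereas Alb and Apoa1 were highest in KI/+ replicates 2 and 4. Adrenal markers had no values. Of the 5 markers of neighbouring tissues with values, only Alb was called, with 39.7 to 95.4 normalized counts in +/+ and 80.9 to 469 in KI/+ mice (log2 fold change 1.99, limma adjusted p = 0.00362). Rragc itself, edited in its coding sequence, had 285 ± 42.3 (SD, n = 5) normalized counts in +/+ and 216 ± 23.6 (SD, n = 5) in KI/+ kidneys (log2 fold change -0.40, limma adjusted p = 0.0678). The counts do not show which base of the allele was read, so they do not check the genotype labels.

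Cyp4a10, Cyp4a14 and Cyp4a31 were higher and Cyp4a12b was lower in every KI/+ kidney than in every +/+ kidney, and Cyp4a12a overlapped between the genotypes. Log2 fold changes, on the log2(normalized count + 1) scale with their standard errors (SE) from limma, were 3.23 (SE 0.38) for Cyp4a14, 1.55 (SE 0.52) for Cyp4a12a, 1.08 (SE 0.15) for Cyp4a10, 0.64 (SE 0.11) for Cyp4a31 and -1.17 (SE 0.20) for Cyp4a12b. All 5 genes passed the filter on low values, that is 10 or more normalized counts in 5 or more of the mice, as did 13197 genes in all. At an adjusted p under 0.05 over these 13197 genes, 3 of the 5 were called higher, against 1.67% of all genes, and 1 was called lower, against 2.02% of all genes. All KI/+ values lay above all +/+ values in 3 of the 5, against 2.29% of all genes, and below them in 1, against 2.71% of all genes. The family was selected on this contrast, so these counts describe the choice and nothing is read from them.

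**Figure D2:**
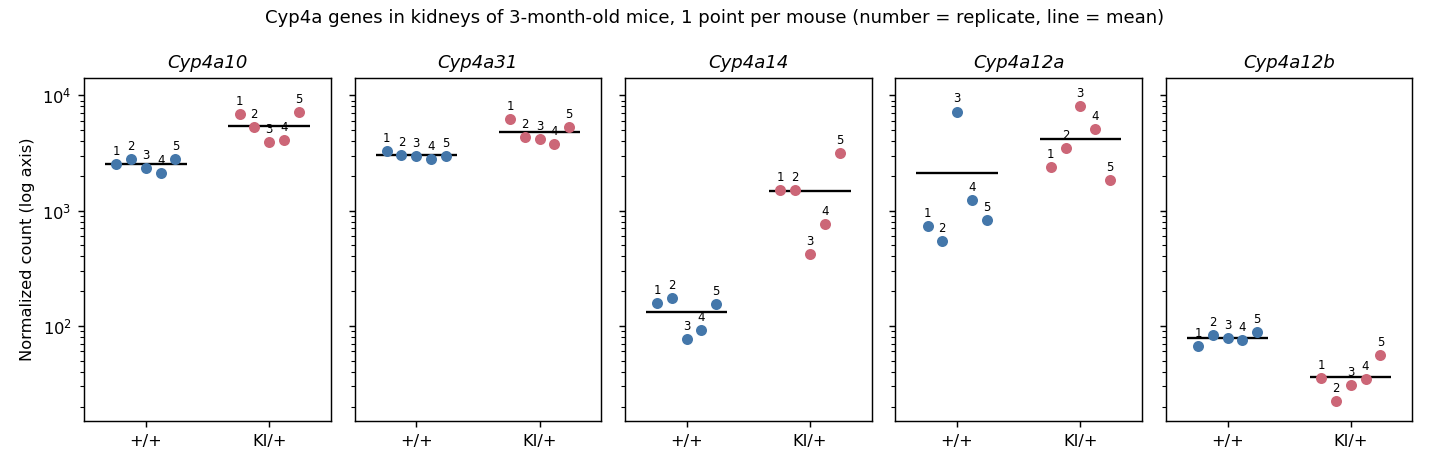
Normalized counts (log axis) of the 5 Cyp4a genes in kidneys of 5 +/+ (blue) and 5 KI/+ (red) mice. Each point is 1 mouse, labelled with its replicate number, and lines are means. Cyp4a14 ran from 77.1 to 176 in +/+ and from 418 to 3138 in KI/+ mice, while Cyp4a12a in +/+ replicate 3 (7232) reached the range of the KI/+ mice.

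The order of the levels is given between genes because a 3′ count does not grow with transcript length, but within the pairs Cyp4a10 and Cyp4a31, and Cyp4a12a and Cyp4a12b, it depends on how shared reads were assigned. In +/+ kidneys, Cyp4a31 was the most abundant member by its mean, followed by Cyp4a10, Cyp4a12a, Cyp4a14 and Cyp4a12b. Cyp4a31 was above Cyp4a10 in 5 of 5 +/+ mice and Cyp4a12a was above Cyp4a14 in 5 of 5, whereas Cyp4a10 was above Cyp4a12a in 4 of 5 and Cyp4a14 above Cyp4a12b in 4 of 5. In KI/+ kidneys, Cyp4a10 came first by its mean, and it was above Cyp4a31 in 4 of 5 mice, while Cyp4a12a was above Cyp4a10 in 2 of 5. Cyp4a31 was above Cyp4a12a in 3 of 5 KI/+ mice and Cyp4a12a above Cyp4a14 in 4 of 5, so none of these neighbours kept 1 order in every KI/+ mouse. Cyp4a14 was above Cyp4a12b in 5 of 5 KI/+ mice.

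Cyp4a14 is an omega-hydroxylase gene known to respond strongly to PPAR alpha agonists and to fasting. It had 158, 176, 77.1, 92.2 and 155 normalized counts in +/+ replicates 1 to 5, and 1500, 1513, 418, 764 and 3138 in KI/+ replicates 1 to 5. The groups did not overlap, but the KI/+ mice were far from even, with replicate 5 at 7.5 times the value of replicate 3. The means were 132 ± 44 (SD, n = 5) in +/+ and 1467 ± 1048 (SD, n = 5) in KI/+ kidneys, 11.1 times as high. With any single mouse left out, the log2 fold change was 2.87 to 3.6. Without KI/+ replicates 1 and 5, the mice with fat markers above all others, it was 2.64. Relative to Cyp4a10, Cyp4a14 amounted to 3.30% to 6.26% in +/+ mice and to 10.6% to 43.8% in KI/+ mice.

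Cyp4a10, the other classical PPAR alpha target of the family, had 2555, 2811, 2338, 2113 and 2807 normalized counts in +/+ replicates 1 to 5. In KI/+ replicates 1 to 5 the counts were 6878, 5264, 3941, 4098 and 7165. The lowest KI/+ mouse, replicate 3, was thus above the highest +/+ mouse, replicate 2. The means were 2525 ± 303 (SD, n = 5) and 5469 ± 1510 (SD, n = 5), a ratio of 2.17. The log2 fold change was 0.97 to 1.19 when each mouse was left out in turn, and 0.81 without KI/+ replicates 1 and 5.

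Cyp4a31 follows Cyp4a10 by position among the genes compared and shares its 3′ end in part. It had 3298, 3051, 2947, 2795 and 2996 normalized counts in +/+ and 6252, 4320, 4155, 3771 and 5350 in KI/+ replicates 1 to 5. The +/+ mice were close together and all KI/+ mice were above them, replicate 1 the most. The means were 3017 ± 184 (SD, n = 5) and 4769 ± 1014 (SD, n = 5), a ratio of 1.58, and the log2 fold change without KI/+ replicates 1 and 5 was 0.44. Reads that moved between Cyp4a10 and Cyp4a31 would leave their sum as it is. Any reads left uncounted because they matched both genes would be missing from the sum. That sum was 4907 to 5862 in +/+ and 7869 to 13130 in KI/+ mice, with a log2 fold change of 0.86 (SE 0.13). The ratio of Cyp4a10 to Cyp4a31 was 0.756 to 0.937 in +/+ and 0.948 to 1.34 in KI/+ mice, so Cyp4a10 differed more between the genotypes than Cyp4a31 as the reads were assigned.

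Cyp4a12a, known as the main producer of omega-hydroxylated arachidonic acid in the mouse kidney, behaved differently. Its normalized counts were 728, 544, 7232, 1236 and 831 in +/+ and 2375, 3491, 8066, 5125 and 1850 in KI/+ replicates 1 to 5. The other 4 +/+ mice lay below every KI/+ mouse, but +/+ replicate 3 lay above 4 of the 5. The means were 2114 ± 2872 (SD, n = 5) and 4181 ± 2508 (SD, n = 5), a difference smaller than either SD. The log2 fold change of 1.55 became 2.18 without +/+ replicate 3, and 1.05 within the longer run of library codes (ending in 53 to 66, 3 +/+ and 4 KI/+ mice).

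Cyp4a12b, the minor copy, moved the other way. It had 66.6, 82.7, 78.2, 76.1 and 88.6 normalized counts in +/+ and 35.1, 22.3, 30.5, 34.6 and 56.4 in KI/+ replicates 1 to 5. All KI/+ mice were below all +/+ mice, and +/+ replicate 3, so far from its group in Cyp4a12a, was in the middle of it here. The means were 78.5 ± 8.16 (SD, n = 5) and 35.8 ± 12.6 (SD, n = 5), a ratio of 0.46. In proportion to Cyp4a12a, the counts of Cyp4a12b were 1.08% to 15.2% in +/+ and 0.378% to 3.05% in KI/+ mice. The sources used here do not say how reads with more than 1 position were counted, so a low Cyp4a12b count next to a high Cyp4a12a count is uncertain. Any such reads left uncounted would be missing from the sum of both copies too. The sum of Cyp4a12a and Cyp4a12b was 627 to 7310 in +/+ and 1906 to 8096 in KI/+ mice, and its log2 fold change was 1.45 (SE 0.50) with overlap between the groups, so the direction of Cyp4a12b was not that of the sum.

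Summed over the 5 genes, the family had 6805, 6666, 12673, 6312 and 6877 normalized counts in +/+ and 17039, 14609, 16610, 13792 and 17559 in KI/+ replicates 1 to 5. The sums of the genotypes did not overlap, and +/+ replicate 3 came nearest to the KI/+ range. These sums were 0.0889% to 0.172% of the recovered reads in +/+ and 0.199% to 0.249% in KI/+ mice. The KI/+ sums were close to each other, from 13792 to 17559, although their make-up varied: Cyp4a12a gave 10.5% of the sum in replicate 5 and 48.6% in replicate 3, and Cyp4a14 gave 17.9% in replicate 5 and 2.52% in replicate 3. Because the kidney was sampled whole, more RNA per tubule cell and a larger share of tubule cells cannot be told apart in any of these values.

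**Figure D3:**
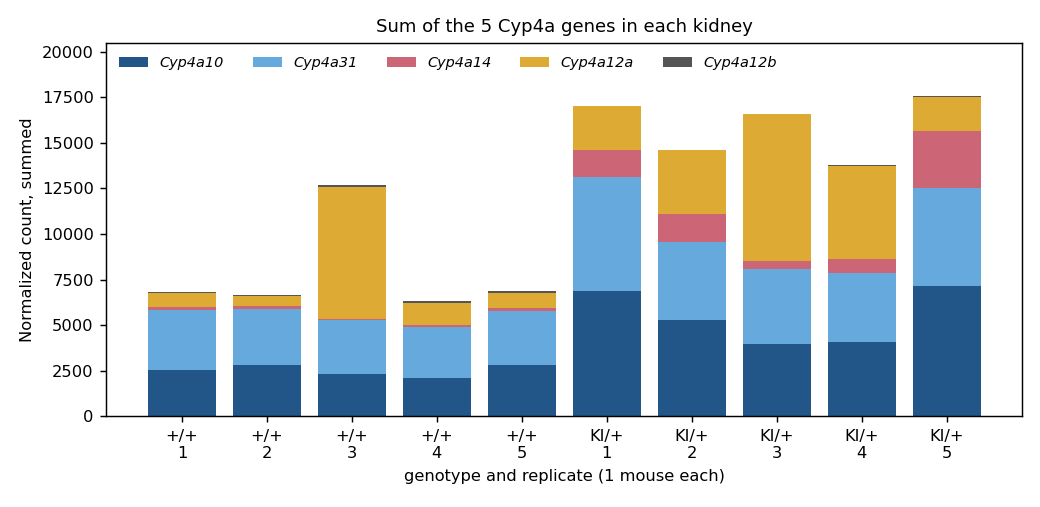
Summed normalized counts of the 5 Cyp4a genes in each mouse (bars from 0, coloured by gene). The sums were 6312 to 6877 in +/+ mice other than replicate 3, which reached 12673 through Cyp4a12a, and 13792 to 17559 in KI/+ mice.

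The mice of each genotype also differed among themselves, which the choice of the family did not use. The deviation of each mouse from the mean of its genotype was taken on the log2(normalized count + 1) scale, and Pearson's r and Spearman's rho were computed over the 10 mice for the 10 pairs of members, as a description with no test. Cyp4a10 and Cyp4a14 deviated together (r = 0.90, rho = 0.85, and r = 0.80 without the 2 mice farthest from the median in Cyp4a10), as did Cyp4a10 and Cyp4a31 (r = 0.86, rho = 0.90, and r = 0.87 without the 2 farthest mice). Cyp4a10 and Cyp4a31 shared 49.9% of the 50-base windows at their ends (6.0% were identical), and Cyp4a14 shared no window with either. The part of shared reads in these r values was not tested. Cyp4a12a deviated in the opposite direction to Cyp4a14 (r = -0.77, rho = -0.89, and r = -0.79 without the 2 mice farthest in Cyp4a12a). It also deviated oppositely to Cyp4a10 (r = -0.63, rho = -0.84, and r = -0.50 without the 2 mice farthest in Cyp4a10, not in Cyp4a12a). With any single mouse left out, the r of Cyp4a12a was -0.95 to -0.75 with Cyp4a14 and -0.94 to -0.55 with Cyp4a10. In KI/+ mice, the order of Cyp4a14 from the highest was replicates 5, 2, 1, 4 and 3, and that of Cyp4a12a was replicates 3, 4, 2, 1 and 5. The copies Cyp4a12a and Cyp4a12b did not follow each other (r = -0.26, rho = -0.44, and r = -0.43 without the 2 mice farthest in Cyp4a12a). For Cyp4a14 and Cyp4a12b, r was 0.44 and rested on KI/+ replicate 5, without which it was -0.17.

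**Figure D4:**
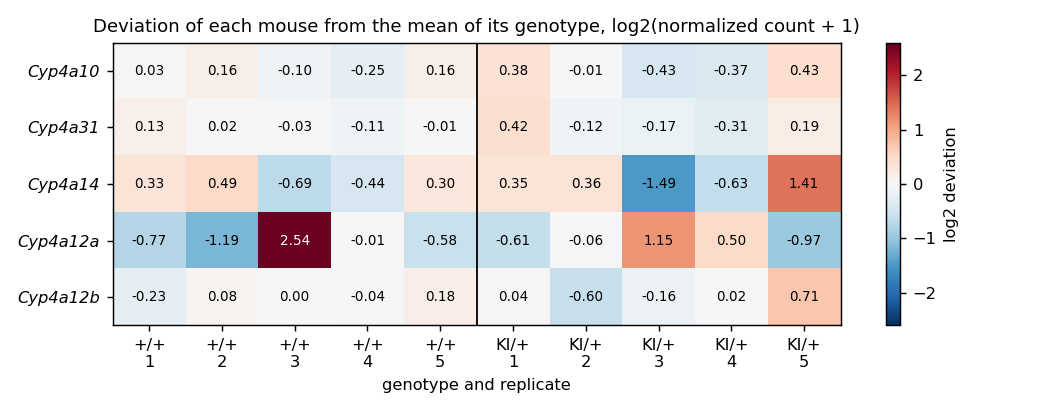
Deviation of each mouse from the mean of its genotype on the log2(normalized count + 1) scale, for 5 Cyp4a genes (rows) in 5 +/+ and 5 KI/+ mice (columns). In KI/+ replicate 3, Cyp4a14 was 1.49 below and Cyp4a12a 1.15 above the genotype mean, and in +/+ replicate 3, Cyp4a12a was 2.54 above it.

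The genes that deviated most like each member were looked up among 9131 other genes whose mean over the mice reached 50 normalized counts, and the highest of so many correlations are large whatever the gene. For Cyp4a10 they were Steap2 (r = 0.94), Ucp2 (0.92), a mitochondrial carrier, and Ccdc25 (0.92). For Cyp4a14 they were Smtnl2 (0.96), Hspa1b (0.95), an inducible heat shock protein, and Gm38197 (0.94), and for Cyp4a31 S100a16 (0.97), Ddb1 (0.94) and the zinc transporter gene Slc39a5 (0.94). Cyp4a12a went with Vezf1 (0.95), Zranb2 (0.95) and Yeats2 (0.94), and Cyp4a12b with the calcium pump gene Atp2b4 (0.92), the acetyl-CoA carboxylase gene Acacb (0.92) and Rcor1 (0.90). Between the genotypes, the limma adjusted p of these 15 genes was 0.131 to 0.935.

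PPAR alpha, which Cyp4a10 and Cyp4a14 are known to answer to, drives genes of fatty acid oxidation in mitochondria and peroxisomes. Of 42 other PPAR alpha target genes tested, 9 were called higher (21.4%, against 1.67% of all genes) and 2 lower (4.76%, against 2.02%), and 31 were not called. Their median log2 fold change was 0.20, where that of all genes tested was 0.0005. The called genes changed by less than Cyp4a14.

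Vnn1, a pantetheinase that is a sensitive PPAR alpha target, rose, with means of 445 ± 26.8 (SD, n = 5) in +/+ and 800 ± 148 (SD, n = 5) in KI/+ mice (log2 fold change 0.83, limma adjusted p = 0.000166). In single mice it ran from 399 to 464 in +/+ mice, and it was 810, 793, 752, 618 and 1028 in KI/+ replicates 1 to 5, without overlap. The peroxisomal thiolase gene Acaa1b had 2313 to 2904 normalized counts in +/+ and 3540 to 5794 in KI/+ mice (log2 fold change 0.73, limma adjusted p = 0.000818). The other called genes rose by log2 fold changes of 0.49 for the acyl-CoA thioesterase gene Acot1, 0.46 for Cpt2, which completes the entry of fatty acids into mitochondria, 0.44 for the retinol saturase gene Retsat, 0.42 for Acadm and 0.42 for Decr1, enzymes of mitochondrial beta-oxidation, 0.40 for Eci1 and 0.29 for Ech1. Vnn1, Acaa1b, Acot1, Cpt2, Decr1 and Retsat were called whichever of the 10 mice was left out, against 3 of these 10 fits for Acadm and 2 for each of Ech1 and Eci1. The genes that fell were Fabp3, a fatty acid binding protein (from 518 ± 43.8 to 186 ± 68.1 normalized counts, SD, n = 5, log2 fold change -1.56, limma adjusted p = 0.000176), and Acsl1, which activates long-chain fatty acids (log2 fold change -0.61, limma adjusted p = 0.0382, called in 5 of the 10 fits without a mouse). Without KI/+ replicates 1 and 5, 5 genes of the list were called higher and 3 lower. Vnn1, Acaa1b, Acot1 and Decr1 were still among them, whereas Cpt2 (limma adjusted p = 0.093) and Retsat (0.0529) were not. The number called in both directions, 11, was 7 without +/+ replicate 3, 4 or 5.

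**Figure D5:**
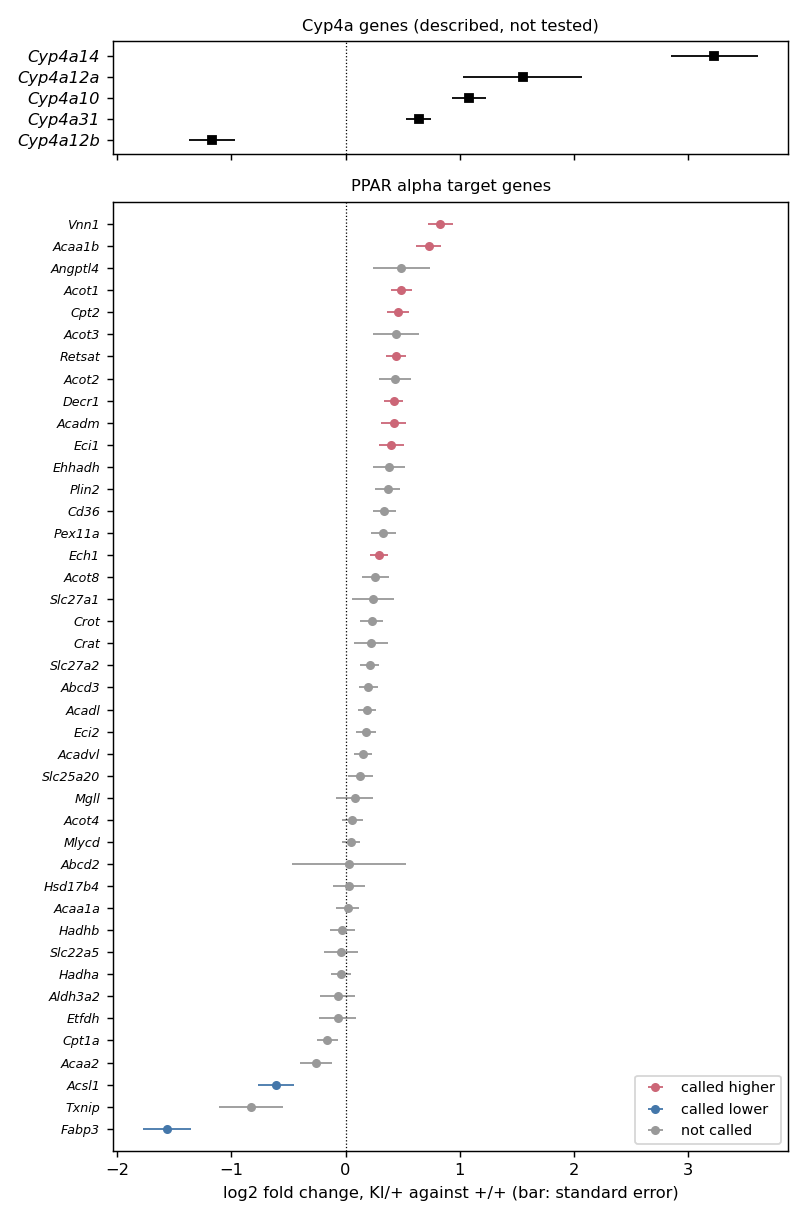
Log2 fold changes, KI/+ against +/+, with standard errors, for the 5 Cyp4a genes (squares, described without a test) and 42 other PPAR alpha target genes (circles, red for called higher, blue for called lower and grey for not called). Vnn1 was the highest of the other targets at 0.83 and Fabp3 the lowest at -1.56.

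The receptors themselves were measured too. Of 17 genes of PPARs, their partners and coregulators tested, 1 was called lower (5.88%, against 2.02% of all genes). With limma, Ppara had 272 ± 95.4 (SD, n = 5) normalized counts in +/+ and 254 ± 51.9 (SD, n = 5) in KI/+ kidneys (log2 fold change -0.05, adjusted p = 0.943). Ppargc1a, the coactivator that works with PPAR alpha in oxidative metabolism, fell, with 629 ± 90.6 (SD, n = 5) normalized counts in +/+ and 346 ± 20.9 (SD, n = 5) in KI/+ mice (log2 fold change -0.85, limma adjusted p = 4.64e-05). Ppara was named for its role, outside the rule for naming genes.

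The partners of the Cyp4a enzymes were compared next. Of 10 other Cyp4 genes and genes that pass electrons to cytochromes P450, only 1 was called. It was called higher, against 1.67% of all genes, which for so few genes says nothing about the list. This gene was Cyb5r3, the reductase of cytochrome b5 (from 451 ± 26.5 to 585 ± 36.2 normalized counts, SD, n = 5, log2 fold change 0.37, limma adjusted p = 0.0132). Cyp4b1, the most abundant other Cyp4 gene, had 7113 ± 1335 (SD, n = 5) and 6440 ± 1548 (SD, n = 5) normalized counts (log2 fold change -0.16, limma adjusted p = 0.691). Por, the reductase of all microsomal P450 enzymes, was higher by 0.29 on the log2 scale without passing (limma adjusted p = 0.0626). Cyp4b1 and Por were named for their roles after their values were seen. The next list held 15 genes of omega-oxidation and the breakdown of dicarboxylic acids and shares 11 genes with the PPAR alpha list. Of these 15, 2 were called, both higher (13.3%, against 1.67% of all genes), again too few genes to say anything about the list. They were Acaa1b, given above, and Adh1, the alcohol dehydrogenase that can oxidize omega-hydroxy fatty acids, which had 6903 to 8589 normalized counts in +/+ and 9076 to 11970 in KI/+ mice (log2 fold change 0.44, limma adjusted p = 0.00821).

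Of 22 genes of arachidonic acid metabolism tested, 1 was called lower (4.55%, against 2.02% of all genes), which for so few genes says nothing about the list. It was Ptger3, a receptor for prostaglandin E2 that was lower in KI/+ mice, with 146, 161, 117, 144 and 141 normalized counts in +/+ and 49.3, 39.0, 48.3, 58.3 and 33.1 in KI/+ replicates 1 to 5. Its groups were far apart (log2 fold change -1.63, limma adjusted p = 3.68e-06), and it passed whichever of the 10 mice was left out.

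Cyp4a genes of the mouse kidney differ between the sexes, so genes that show sex were read in each mouse. The Y-linked genes Ddx3y, Eif2s3y, Kdm5d and Uty had reads in all 10 mice, with sums of 658 to 762 normalized counts in +/+ and 725 to 838 in KI/+ mice. Of 12 genes known to differ between male and female kidneys, 1 was called higher (8.33%, against 1.67% of all genes), which for so few genes says nothing about the list. It was Cyp2e1, another cytochrome P450, with 2904 to 3333 normalized counts in +/+ and 3493 to 5474 in KI/+ mice (log2 fold change 0.55, limma adjusted p = 0.00376). Kap, the androgen-dependent kidney protein gene, had 261999 ± 37367 (SD, n = 5) in +/+ and 307033 ± 34508 (SD, n = 5) in KI/+ mice (log2 fold change 0.23, limma adjusted p = 0.50).

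Among 23 proximal tubule markers, 3 were called higher (13.0%, against 1.67% of all genes) and 3 lower (13.0%, against 2.02%). Pck1, the rate-limiting enzyme of gluconeogenesis, rose, with means of 2097 ± 472 (SD, n = 5) in +/+ and 5470 ± 2216 (SD, n = 5) in KI/+ mice (log2 fold change 1.3, limma adjusted p = 0.00412), and the dicarboxylate transporter gene Slc13a3 and the organic anion transporter gene Slc22a6 rose by 0.55 and 0.52 on the log2 scale. The genes that fell were the lactate transporter gene Slc5a12 (log2 fold change -0.95), the glucose transporter gene Slc5a2 (-0.93) and Gatm (-0.74), an enzyme of creatine synthesis, which was called in 7 of the 10 fits without a mouse. The called markers of the segment that holds most Cyp4a transcripts thus went in both directions. Among 27 markers of other kidney cells, 1 was called higher (3.7%, against 1.67% of all genes) and 3 lower (11.1%, against 2.02%). Synpo of podocytes was called higher (in only 5 of the 10 fits without a mouse). Slc12a3 of the distal convoluted tubule (log2 fold change -1.20), Umod of the thick ascending limb (-1.0) and Slc4a1 of intercalated cells (-0.59) were called lower. The sum of these 27 markers was 36422 to 45512 normalized counts in +/+ and 23227 to 29496 in KI/+ mice. Umod alone, with means of 22917 and 11569, gave much of that difference, and 13 of the 27 markers had a log2 fold change above 0. The part of these marker differences in the values of the Cyp4a genes was not tested. For the fat markers, whose sums were highest in KI/+ replicates 1 and 5, the log2 fold changes without both mice were 2.64 for Cyp4a14, 0.81 for Cyp4a10, 0.44 for Cyp4a31, 2.08 for Cyp4a12a and -1.42 for Cyp4a12b.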

How the data were processed

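Kidney RNA of 10 mice was read with QuantSeq 3′ libraries. Per the labels and the study's methods, the authors aligned reads to GRCm39 with TopHat2 2.0.10, Bowtie 1.0.0 and SAMtools 0.1.19, allowing 3 mismatches and several positions per read, and used HTSeq 0.6.1, with strand, to count reads per gene of GENCODE vM26. Whether reads with several positions were counted, and the read length, are not given in the sources used here. The authors deposited a signal for each of 13837 genes, which is its count of reads after division by the size factor of that library. All 10 columns were matched to a mouse. Whole reads were recovered for 100% of values, with a tolerance of 0.01 reads.

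The authors' normalization was kept. The log2(value + 1) values of 13197 genes with at least 10 in at least 5 mice were tested with limma 3.58.1 in R 4.3.3 (trend, two-sided, Benjamini-Hochberg over all these genes, threshold 0.05). On this scale, changes of genes with low counts come out too small. On recovered reads, edgeR 4.0.16 and DESeq2 1.42.0 were alternatives. Each limma p-value sets the difference between the means of 5 and 5 mice against the spread among mice of the same genotype. In limma, that spread is adjusted with the spread of the other genes. The members and the lists were chosen with earlier results of these data known. Certain genes of these lists are not reported here and were left out of the counts. Genes were named if they belonged to the family, were called in a list, were the first 3 with a value in a list with none called, or were the 3 most like a member. Each fit was tested on simulated data. Transcripts were taken from GENCODE vM21 on GRCm38, and identity was computed with biopython 1.88 in python 3.11.15. The alternatives were pseudocounts of 0.5 and 5, no filter, a mean of at least 50, TMM, quantile normalization, edgeR, DESeq2, the run of library codes as a covariate, the longer run of codes by itself and leaving out each mouse, with the filter applied anew. Summing near-identical copies, and leaving out both KI/+ mice with high fat markers, were added after the data had been seen.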

Additional observations from a re-analysis of the deposited data

Results flagged for a closer look

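In 66 groups of 5 mice (33 genes in each genotype), 5 groups had a mouse apart from the others, with a gap to the nearest mouse of more than 0.71 of the range of the group, and chance gives about 1 such group in 20. In Cyp4a12a, +/+ replicate 3 stood at 7232 normalized counts, above the other +/+ mice. In Acaa1b, +/+ replicate 2 was low at 2313, and in Acadm the same mouse was high at 2951. In Vnn1, +/+ replicate 4 was low at 399. In Umod, KI/+ replicate 5 was low at 7760 normalized counts.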

How the results depend on the processing

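The labels pair no mice across the genotypes, so no paired analysis was made. They also give no replicate numbers, and those used here follow the order of the library codes within each genotype. Over the alternative settings, the log2 fold changes of Cyp4a10, Cyp4a14, Cyp4a31 and Cyp4a12a kept their direction. Apart from leaving out each mouse, their ranges were 0.81 to 1.13, 2.64 to 3.48, 0.44 to 0.86 and 0.98 to 2.08. With each mouse left out, they were 0.97 to 1.19, 2.87 to 3.6, 0.53 to 0.72 and 1.25 to 2.18. Cyp4a12b changed sign in 1 setting, to 1.45 when its counts were summed with those of Cyp4a12a, which holds most of the sum. With the run of library codes as a covariate, 832 genes were called in place of 487, and the lists of other Cyp4 and redox genes and of arachidonic acid metabolism had 2 and 3 called genes in place of 1 each. DESeq2 gave 2 for both of these lists, a mean of at least 50 and the longer run of library codes by itself gave 2 for arachidonic acid metabolism, and edgeR gave 2 for the sex-differing genes in place of 1. The cause was not tested. With each mouse left out, 267 to 459 genes were called, lowest without +/+ replicate 5 (285 without +/+ replicate 4), along with 7 to 11 PPAR alpha targets in place of 11 (8 to 14 in the other settings), with 7 without +/+ replicate 3, 4 or 5, 1 to 2 other Cyp4 and redox genes, 1 to 2 genes of arachidonic acid metabolism and 1 to 2 sex-differing genes. The r of Cyp4a10 with Cyp4a14 was then 0.85 to 0.94, that of Cyp4a10 with Cyp4a31 0.81 to 0.88, that of Cyp4a12a with Cyp4a12b -0.47 to -0.01, and that of Cyp4a14 with Cyp4a12b -0.17 to 0.76, reversed without KI/+ replicate 5. Of the 5 genes, Cyp4a12b had the lowest counts (22.3 to 88.6 normalized counts), while Cyp4a12a had the largest SE.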
